A study of Mus musculus with 19 samples.

Results

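The 117 mouse genes described here are the variable (V) segments of the T cell receptor loci. They were chosen by name, as every gene symbol of the form Trav, Trbv, Trdv or Trgv followed by a number, among the probe sets that carried exactly 1 symbol. They make up 117 of the 30063 genes so measured: 86 alpha chain, 21 beta chain, 5 delta chain and 5 gamma chain segments. Each had 1 probe set. The mouse RefSeq annotation of GRCm38.p6, the assembly also called mm10, lists 178 V segments (130 alpha, 35 beta, 6 delta and 7 gamma), so the arrays give 117 of them a value of their own.

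The study infused the infrarenal aorta of C57BL/6J mice aged 10 weeks, for 5 min at 120 mmHg, with saline alone (sham) or with saline holding type I porcine pancreatic elastase (PPE) at 2.5 U/mL, a model in which the damaged wall widens into an abdominal aortic aneurysm. The segment was flushed, dissected from fat and connective tissue under a microscope, and frozen 7 days after surgery. Each of the 19 Clariom D arrays held the RNA of 1 mouse: 5 male sham, 7 male PPE, 3 female sham and 4 female PPE. No genotype other than the strain was named, and every mouse, sham mice included, had the aorta clamped, opened and pressurised. The deposited values are log2 intensities. Their median over all probe sets was 5.61 to 5.85 in male arrays and 6.17 to 6.31 in female arrays, so PPE was set against sham within each sex only. The arrays are bulk measurements, in which more T cells and more receptor RNA per T cell cannot be told apart.

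A T cell builds its receptor by cutting its DNA and joining a V segment to a joining (J) segment, with a diversity (D) segment between them in the beta and delta chains. The joined exon is then spliced to a constant segment. Most T cells carry an alpha beta receptor and read peptides held by MHC molecules. Others carry a gamma delta receptor, and some innate-like T cells use nearly the same alpha V segment in every cell. Because each clone uses few segments out of many, the RNA of 1 V segment in a tissue comes from a fraction of its T cells. V segments that have not been rearranged can also be transcribed at a low level.

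The alpha members lie on chromosome 14 between 52427967 and 53845827, and the delta members follow them on the same chromosome between 53881612 and 54149201. The beta members lie on chromosome 6 between 40891296 and 41558371, and the gamma members on chromosome 13 between 19178042 and 19243301 (all GRCm38.p6). The alpha locus of this strain holds repeated blocks of V segments: 29 members carry the letter d in their name, 26 the letter n and 31 neither. The copies are near-identical in sequence, so the probes of one can catch RNA of another. In 3 pairs of d and n copies (Trav5d-3 and Trav5n-3, Trav7d-5 and Trav7n-5, Trav14d-2 and Trav14n-2) the values were the same in all 19 arrays. Values for single members of these blocks are therefore uncertain as to which copy they report. A further 25 probe sets named more than 1 symbol and were left out of the 117. RefSeq calls 6 members pseudogenes (4 alpha and 2 beta).

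Most V segments were dim. As a yardstick, the level that 95 percent of 1753 olfactory, vomeronasal and taste receptor genes stay under was found in each array, and a V segment over that level was counted as above background. By this count 11 V segments were above background in all 19 arrays and 54 in none. Those in all arrays were Trav1, Trav11d, Trav11n, Trav13d-3, Trav13n-3, Trav13n-4, Trav3d-2, Trav4d-2, Trav4d-4, Trav4n-4 and Trdv4. RefSeq calls Trav3d-2 and Trav4d-2 pseudogenes. The signals of different probe sets depend on their probes, so brightness ranks signals, not transcripts. The brightest over all arrays was Trav13n-4 with a mean log2 intensity of 10.6, followed by Trav11n at 9.24, Trav4n-4 at 8.70, Trav11d at 8.67 and Trav1 at 7.95. The dimmest were Trgv7 at 3.63 and the pseudogene Trbv10 at 3.56. Of the beta members, Trbv3 was the brightest, with a mean of 7.08.

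The segments above background in all arrays included none that passed the test of PPE against sham. Trav13n-4 stood at 9.92 to 10.60 in male sham arrays and 9.60 to 10.78, median 10.56, in male PPE arrays, a difference in log2 intensity of 0.20 ± 0.21 (SE, n = 7 and 5) with a 95% interval of -0.24 to 0.64. Trav4n-4 stood at 8.08 to 8.55 in male sham and 8.09 to 8.77 in male PPE arrays. The groups overlapped for both. Over the 11 segments the log2 difference ran from -0.14 to 0.37 in males and from -0.25 to 0.34 in females, and 0 had an adjusted p below 0.05 in either sex. The largest male difference was that of Trav13d-3, with a 95% interval of 0.07 to 0.68. Upper limits of the 11 intervals ran from 0.19 (Trav4d-2) to 0.68 in males, where called members lay 0.30 to 1.00 higher. In females they ran from 0.34 (Trav11n) to 0.84 (Trav13n-4), where called members lay 0.62 to 1.30 higher. Some of the intervals thus held changes of the size seen in called members, and others did not. Called differences are those large enough to pass, so an interval short of them can still hold a smaller rise. In females every upper limit lay above 0.23, the median of the alpha members.

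The mean share of alpha, beta and gamma V segments above background was higher after PPE in both sexes by this yardstick, though the size, and for female alpha the sign, depended on where the background level was set. Of the 21 beta members, 1.90% ± 2.61 (SD, n = 5) were above background in male sham arrays and 27.9% ± 7.49 (SD, n = 7) in male PPE arrays. For alpha the shares were 17.0% ± 1.76 and 38.2% ± 3.39. No male sham array reached the lowest male PPE array in either chain: the counts were 0 or 1 beta members against 4 to 8, and 13 to 16 alpha members against 28 to 37. In females the alpha share was 28.7% ± 2.42 (SD, n = 3) in sham and 39.2% ± 8.02 (SD, n = 4) in PPE arrays, and the beta share was 20.6% ± 2.75 and 32.1% ± 9.82, with the ranges of the groups overlapping or touching. Among the delta members Trdv4 alone was above background, in every array of all 4 groups. The gamma share was 12% ± 11 and 45.7% ± 15.1 in males, and 13.3% ± 11.5 and 20.0% ± 0 in females, where 1 of 5 members is 20%. With the level set at the 99th percentile of the sensory receptor genes, the differences between PPE and sham were 6.08 percentage points for alpha and 2.04 for beta in males, and -1.45 and 1.19 in females.

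The yardstick itself differed between the male groups. The background level was 6.09 to 6.70 in male sham arrays and 5.82 to 6.19 in male PPE arrays, while it was 6.62 to 7.01 and 6.70 to 6.94 in female arrays. Trgv6 shows what this does: it was above background in 3 of 5 male sham and 7 of 7 male PPE arrays although its mean was 6.33 in sham and 6.24 in PPE. With 1 level for all arrays of a sex, the male difference between PPE and sham was 9.17 percentage points for alpha in place of 21.2, and 10.2 for beta in place of 26.0. The male groups were then no longer apart. Alpha shares were 17.4 to 30.2% in sham and 24.4 to 41.9% in PPE arrays, and beta shares 0 to 9.52% and 9.52 to 23.8%. Over all genes, the share above background was 48.9% in male sham and 53.8% in male PPE arrays, and 52.2% and 51.6% with 1 level.

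**Figure D1:**
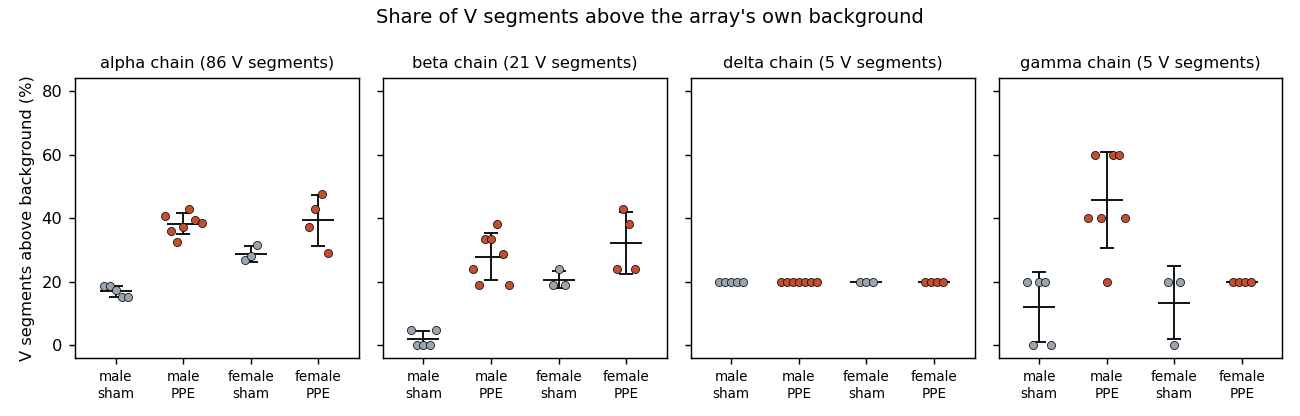
Share of V segments above background in each array, in percent, for the alpha, beta, delta and gamma chains and the 4 groups. Each point is 1 array, and bars give the mean and SD. Male sham arrays lie at 0 to 4.76% for beta and male PPE arrays at 19.0 to 38.1%, while the delta share is 20% in every array.

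In males, PPE was set against sham over all 30063 genes with limma, with p-values adjusted over all of them by the Benjamini-Hochberg method. V segments were higher after PPE in 22 of 117 cases (18.8%) and lower in 0, while 9.69% of all genes were called higher, 9.97% lower and 19.7% in either direction. At an unadjusted p below 0.05, 45 of the 117 V segments differed, and 8843 of the 30063 genes. The called members were 14 alpha, 6 beta, 1 delta and 1 gamma segment. The median log2 difference was 0.19 over the alpha, 0.39 over the beta, 0.22 over the delta and 0.13 over the gamma members, and 0.01 over all genes. Of the 117, 101 (86.3%) had a difference above 0, against 51.5% of all genes. The changes were small: the called members lay 0.30 to 1.00 higher on the log2 scale, and 1 of the 22 reached 2-fold. Every PPE array lay above every sham array in 10 of the 117, all of them among the called members, and in 4.7% of all genes. Of the 22, 21 were above background in no sham array and 9 in no PPE array either. Intensities that low hold a large part of background light, so the folds of such members are those of the measured signal.

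Among the beta segments, which pair with an alpha chain in alpha beta T cells, 6 of 21 rose in males: Trbv3, Trbv12-1, Trbv12-2, Trbv13-2, Trbv15 and Trbv20. Trbv3 read 6.26, 5.89, 5.85, 6.00 and 5.73 in the sham arrays, and 6.59 to 7.46 with a median of 6.87 in the 7 PPE arrays. No sham array reached a PPE array, and the difference was 1.00 ± 0.21 (log2, SE), a 2.00-fold rise with an adjusted p of 0.00221. Trbv15 read 5.22, 5.20, 5.21, 5.02 and 5.50 in sham and 5.71 to 6.28, median 5.98, in PPE arrays. Its groups were also apart, and its difference of 0.74 ± 0.11 had the lowest adjusted p of the V segments, 7.28e-05. Trbv15 stayed called with an adjusted p of at most 0.00194 in all alternatives run.

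Trbv12-1 and Trbv12-2, the members of 1 family on either side of Trbv13-1, both rose, by 0.68 ± 0.17 (adjusted p = 0.00802) and 0.89 ± 0.22 (adjusted p = 0.00751). Trbv12-2 read 4.39 to 5.42 in sham and 4.94 to 6.23 in PPE arrays, so its groups overlapped. Trbv13-2, a segment used by a large share of mouse T cells and by many natural killer T cells, read 4.65, 4.55, 3.80, 4.36 and 4.38 in sham and 4.64 to 5.83, median 5.02, in PPE arrays. The lowest PPE array lay just under the highest sham array, and the difference was 0.77 ± 0.17 (adjusted p = 0.00287). Trbv20 rose by 0.77 ± 0.24 (adjusted p = 0.0310), a call lost in 6 of the 19 fits that left out 1 array.

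The other 15 beta members did not pass in males, and their differences ran from -0.28 for Trbv30 upward. Trbv14 had 0.39 ± 0.14 (adjusted p = 0.0665), Trbv19 had 0.48 ± 0.19 (adjusted p = 0.0960) and Trbv1, the segment at the upstream end of the locus, had 0.30 ± 0.11 (adjusted p = 0.0692). Trbv2, the neighbour of Trbv3, had 0.31 ± 0.15 (adjusted p = 0.181). Along the locus the outermost of the 6 called members are Trbv3 and Trbv20, and none from Trbv21 to Trbv31 passed. The calls themselves set these bounds, so this is a description, and no pattern along the locus was tested. Trbv21, Trbv23, Trbv24, Trbv26 and Trbv30 were above background in no array. The same held for Trbv10, Trbv12-1, Trbv13-1, Trbv16 and Trbv19, which lie between Trbv3 and Trbv20. Trbv31, which lies beyond the constant segments and joins by inversion, had 0.44.

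**Figure D2:**
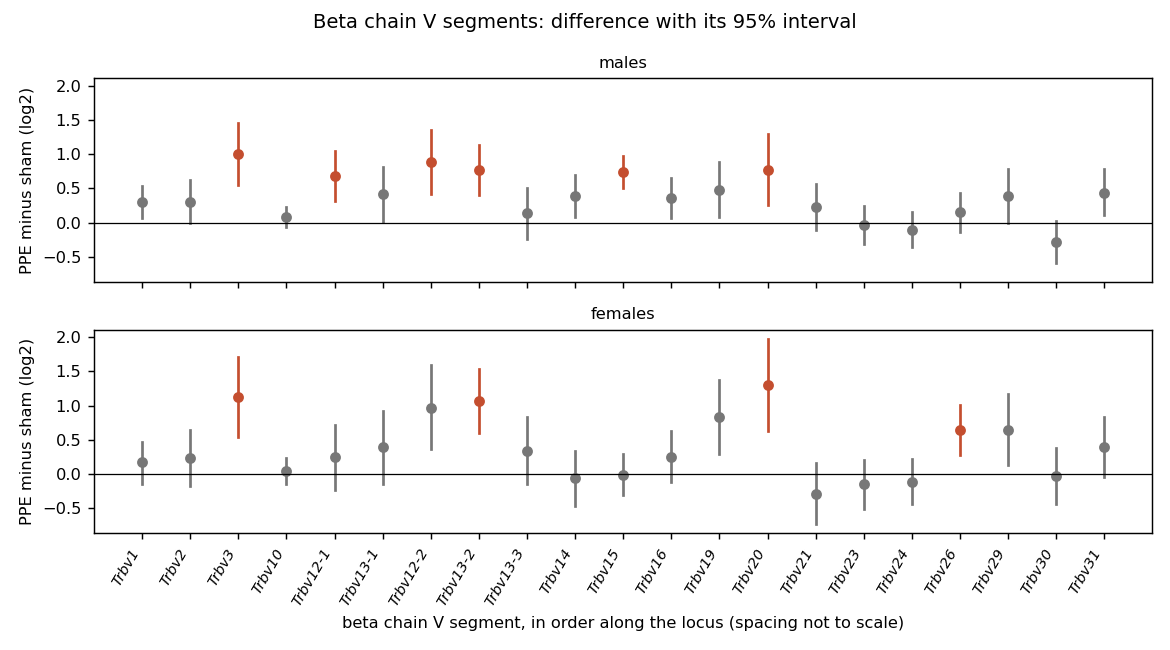
PPE minus sham (log2) of the 21 beta chain V segments in their order along chromosome 6, for males above and females below. Points are limma estimates, bars their 95% intervals, and red marks an adjusted p below 0.05. In males the outermost called segments are Trbv3 and Trbv20. Trbv26 is called in females only, and its difference between the sexes in limma's interaction contrast was -0.50 with an adjusted p of 0.454.

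Of the alpha segments, 14 of 86 rose in males, 16.3%, and 8 of the 19 alpha families had at least 1 of them. The largest differences were those of Trav16d-dv11, which the delta chain can also use, at 0.95 ± 0.26 (adjusted p = 0.0135), and Trav6n-6 at 0.83 ± 0.16 (adjusted p = 0.000723). Trav6n-6 read 4.42 to 4.75 in sham and 5.02 to 5.87 in PPE arrays, with no overlap, and was above background in no array. Trav16d-dv11 read 4.57 to 5.30 in sham and spread from 4.79 to 6.83 in PPE arrays, so the groups overlapped. Its call was lost without the libraries male sham 4, male sham 5 and male PPE 1 (adjusted p = 0.106).

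Next came Trav3d-3 at 0.67 ± 0.17 (adjusted p = 0.00879), Trav9-2 at 0.64 ± 0.19 (adjusted p = 0.0213), Trav16n at 0.56 ± 0.18 (adjusted p = 0.0395) and Trav6d-7 at 0.55 ± 0.15 (adjusted p = 0.0135). In Trav9-2 the PPE arrays reached from 5.20 to 6.57 and the sham arrays from 4.83 to 5.14. Trav3d-3 and its counterpart Trav3n-3 were above background in no sham array and in 6 and 7 of the 7 PPE arrays. Trav16n lost its call in 10 of the 19 fits without 1 array.

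By family, both measured Trav16 members and 2 of 3 Trav10 members rose, though Trav10 was called in 16 and Trav10d in 5 of the 19 fits without 1 array, and the 10 Trav9 members had a median difference of 0.45 with 3 calls. None of the 12 Trav13 members, the largest family, passed, with differences of 0.07 to 0.44, and none of the 7 Trav4 members did, with differences of -0.06 to 0.17. Of the 14 called alpha members 11 carry a d or n, in 6 of 29 d copies and 5 of 26 n copies, while 3 of the 31 others were called. Because copies can share probes, these 11 are not 11 separate observations.

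Among the segments of invariant receptors, the alpha ones did not pass in either sex, while the beta segment Trbv13-2 rose in both. Trav11d belongs to the segments of the natural killer T cell receptor, which reads lipids held by CD1d. It read 7.78 to 8.04 in male sham and 7.42 to 8.80, median 8.18, in male PPE arrays, a difference of 0.27 ± 0.18 (95% interval -0.12 to 0.66). In females it read 9.18, 9.90 and 9.92 in sham and 9.38 to 9.92 in PPE arrays. Trav11n had 0.09 ± 0.22 in males and -0.25 ± 0.28 in females. Trav1, the segment of mucosal-associated invariant T cells, had 0.18 ± 0.19 (95% interval -0.22 to 0.57) in males and 0.00 ± 0.25 (95% interval -0.52 to 0.51) in females. Of the other beta segments these cells favour, Trbv13-3 had 0.14 ± 0.18 in males and 0.34 ± 0.23 in females, Trbv29 0.39 ± 0.19 and 0.65 ± 0.24, Trbv19 0.48 ± 0.19 and 0.83 ± 0.25, and Trbv1 0.30 ± 0.11 and 0.17 ± 0.15, and none passed. Trbv19 was above background in no array, and Trbv13-2 in 1 alone, a male PPE array. RefSeq calls Trbv29 a pseudogene. In males the intervals of Trav11d, Trav11n and Trav1 reached 0.66, 0.54 and 0.57, within the 0.30 to 1.00 of the called members. In females they reached 0.43, 0.34 and 0.51, short of the smallest called difference of 0.62. Called differences are those large enough to pass, and each of these female intervals held 0.23, the median of the female alpha members. The female intervals of Trbv13-3, Trbv29 and Trbv19 reached 0.83, 1.17 and 1.37, and that of Trbv1 reached 0.47.

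The delta and gamma chains form the gamma delta receptor. Trdv4, which pairs with Trgv5 or Trgv6 in the first gamma delta T cells made in the fetal thymus, was the brightest delta member. It read 7.83, 7.59, 7.95, 7.08 and 7.04 in male sham and 7.33 to 7.65 in male PPE arrays, a difference of -0.06 ± 0.14. Its sign was positive under quantile normalisation, at 0.04, and under centring on the sensory receptor genes, at 0.07. The male sham arrays spread over the PPE arrays on both sides. Trdv2-2 rose by 0.42 ± 0.09 (adjusted p = 0.00280): it read 3.90 to 4.29 in sham and 4.33 to 4.91 in PPE arrays, without overlap and below background in every array. Trdv1 at 0.29 ± 0.12 (adjusted p = 0.0930), Trdv2-1 at 0.22 ± 0.08 (adjusted p = 0.0623) and Trdv5 at -0.06 ± 0.17 did not pass, and the sign of Trdv5 turned positive, at 0.07, under centring on the sensory receptor genes.

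Of the gamma members Trgv3 rose in males, by 0.59 ± 0.19 (adjusted p = 0.0351). It read 5.68 to 6.27 in sham arrays and 6.46 to 7.05 in 6 PPE arrays, with the library male PPE 4 at 5.67, below every sham array. Trgv4 had 0.48 ± 0.20 (adjusted p = 0.118), Trgv5 0.11 ± 0.14, Trgv6 -0.09 ± 0.15 and Trgv7, a segment of intestinal intraepithelial T cells, 0.13 ± 0.09. The sign of Trgv6 was positive, at 0.03, under centring on the sensory receptor genes. The call of Trgv3 was lost in 7 of the 19 fits without 1 array. Il17a and Il17f, cytokines that many of these cells make, were above background in no array, with means of 4.05 and 4.22 for Il17a in male sham and male PPE arrays.

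In females 6 of 117 V segments (5.13%) were higher after PPE and 0 were lower, against 2.79% of all genes called higher, 1.46% lower and 4.25% in either direction. A further count at an unadjusted p below 0.05 gave 30 of the 117, and 4437 of the 30063 genes. The 6 were Trbv3, Trbv13-2, Trbv20 and Trbv26 of the beta chain and Trav5-4 and Trav9-1 of the alpha chain. Medians were 0.23 over alpha, 0.25 over beta, 0.10 over delta and 0.08 over gamma members, and -0.02 over all genes. Of the 117, 93 (79.5%) had a difference above 0, against 44.5% of all genes. Every PPE array lay above every sham array in 17 V segments, the 6 called ones included, and in 11% of all genes. In 1, Trgv7, every PPE array lay below every sham array, as in 8.86% of all genes: it read 3.88, 4.02 and 4.29 in sham and 3.69 to 3.78 in PPE arrays, a difference of -0.33 ± 0.12 (adjusted p = 0.158).

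Trbv20 had the largest female difference, 1.30 ± 0.32, a 2.46-fold rise with an adjusted p of 0.0256. It read 5.76, 5.27 and 6.52 in sham and 6.98, 6.96, 7.81 and 6.84 in PPE arrays. Trbv3 read 6.90, 7.26 and 7.95 in sham and 8.19, 8.25, 9.35 and 8.18 in PPE arrays, a rise of 1.12 ± 0.28 (adjusted p = 0.0277). Both had their highest value in the library female PPE 3. Trbv13-2 read 5.37, 5.35 and 5.61 in sham and 6.43, 6.55, 6.77 and 6.28 in PPE arrays, with the PPE arrays close together and well clear of sham. Its rise was 1.06 ± 0.22 (adjusted p = 0.0101). Trbv13-2 was above background in no female array of either group, and in 1 male PPE array.

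Trbv26 at 0.65 ± 0.17 (adjusted p = 0.0426), Trav5-4 at 0.63 ± 0.17 (adjusted p = 0.0494) and Trav9-1 at 0.62 ± 0.17 (adjusted p = 0.0457) passed narrowly, and all 3 were above background in no array. Trbv12-2 at 0.97 ± 0.29 (adjusted p = 0.0726), Trbv19 at 0.83 ± 0.25 (adjusted p = 0.0770) and Trav9d-1 at 0.48 ± 0.14 (adjusted p = 0.0684) did not pass. Trav16d-dv11 had 0.89 ± 0.34 (adjusted p = 0.183), with sham arrays at 6.09, 6.09 and 6.17 and PPE arrays at 6.69 to 7.28.

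The female calls rest on few arrays. Without the library female sham 1, 0 V segments were called and 16 had an unadjusted p below 0.05, while 1.24% of all genes were called higher. That library held the lowest value of its group in 81.2% of V segments and in 47.9% of all genes. The library female PPE 3 held the highest value of its group in 85.5% of V segments and in 31.1% of all genes. Across the 19 fits that left out 1 array, 0 of the 6 female calls were kept in all, while 15 of the 22 male calls were.

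**Figure D3:**
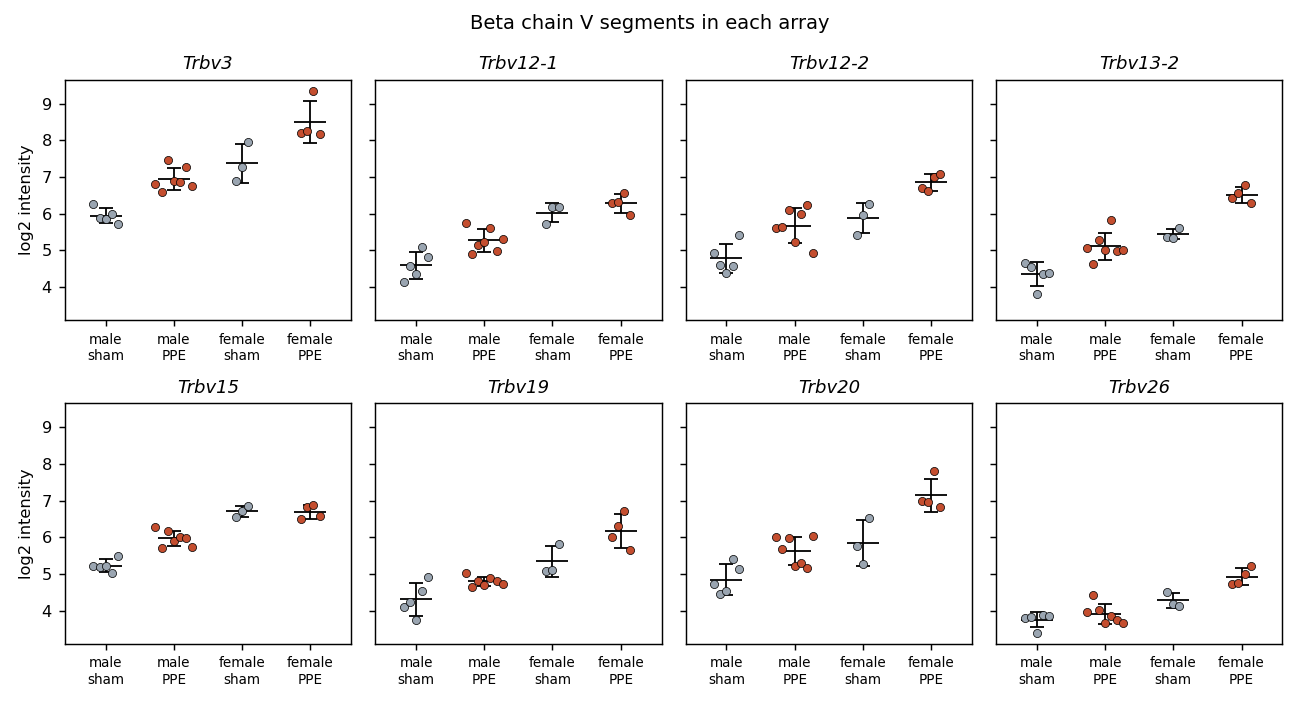
Log2 intensity of 8 beta chain V segments in each array, by group. Points are arrays, and bars give the mean and SD. Trbv3 separates PPE from sham in both sexes, Trbv15 in males alone, and 1 female PPE array stands above the other 3 for Trbv3 and Trbv20.

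Markers of other lymphocytes moved with the female groups. Of 6 measured B cell markers 4 were called higher in females and 0 in males. Ms4a1, which codes for CD20, read 7.37, 6.75 and 7.67 in female sham and 8.47, 9.85, 10.42 and 8.50 in female PPE arrays. The mean of the B cell list was 7.29 to 7.96 in female sham, 8.35 to 9.64 in female PPE, 6.12 to 7.58 in male sham and 6.72 to 7.21 in male PPE arrays. The libraries female PPE 2 and female PPE 3 were also highest for Cr2, a receptor of mature B cells and follicular dendritic cells, at 8.51 and 8.40 against 6.97 and 7.08 in the other PPE arrays. Glycam1, made by the high endothelium of lymph nodes, read 13.22 in female PPE 3 and 6.51 to 8.25 in the other female arrays. Of 5 measured lymph node markers 1, Ccr7, was called higher in each sex. Without the libraries female PPE 2 and female PPE 3, 0 V segments were called in females and 14 had an unadjusted p below 0.05. Of all genes 0.283% were then called higher. The part of lymphoid tissue in the female V segment values was not tested beyond this.

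In males the mean of the adipocyte markers was 13.21 in the library male sham 4 and 9.23 to 10.39 in the other male sham arrays. Male sham 4 was also the highest male array for the B cell list, at 7.58, and for Cr2, at 6.88. The adipocyte means of male sham 5 and male PPE 1, 9.79 and 10.79, lay within the range of the other arrays of their groups. The libraries male sham 4 and male sham 5 held the highest value of their group in 41.9% and 39.3% of V segments, against 29.7% and 28.0% of all genes. The library male PPE 1 did so in 42.7%, against 38.3% of all genes. Without these 3 libraries 10 beta members, in place of 6, were called in males, and Trdv4 was called lower at -0.33 (adjusted p = 0.0310). The libraries were chosen after seeing the data, so these calls are no separate check. Leaving out sham arrays that hold many of the highest V segment values raises PPE minus sham in those members by construction. For Trdv4, male sham 4 and male sham 5 held the lowest sham values, 7.08 and 7.04, so leaving them out lowers its difference.

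Immunoglobulin V segments, the counterpart of these genes in B cells, were set beside them. Of 203 such segments, 1 was called higher and 1 lower in males, with a median difference of 0.11. In females 25 were called higher and 0 lower, with a median of 0.80. The share called higher was larger for T cell receptor than for immunoglobulin V segments in males, 22 of 117 against 1 of 203, and smaller in females, 5.13% against 12.3%, with no test of either difference.

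**Figure D4:**
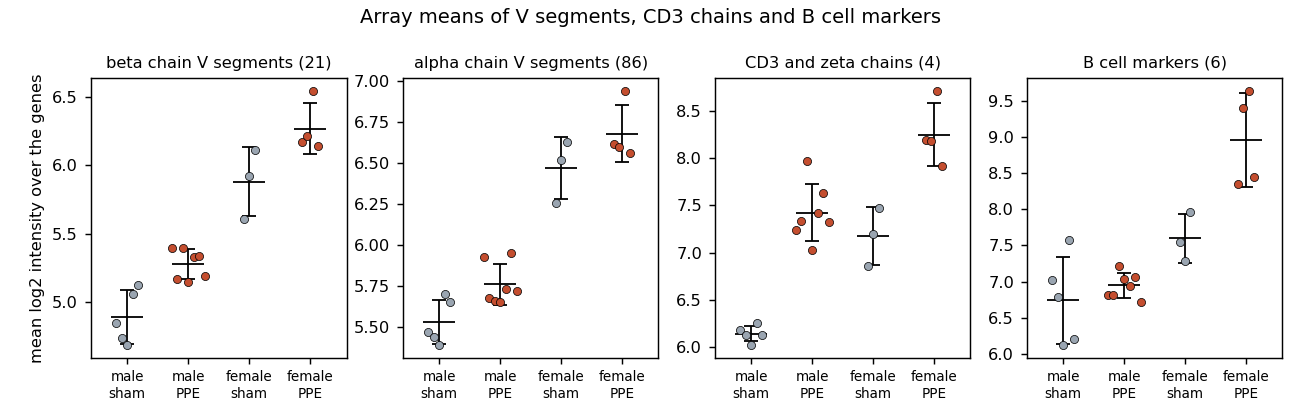
Mean log2 intensity per array over the beta and alpha chain V segments, the CD3 and zeta chains and the B cell markers, by group. Points are arrays, and bars give the mean and SD of the arrays. The CD3 and zeta mean is 6.02 to 6.25 in male sham and 7.03 to 7.97 in male PPE arrays, while the B cell mean overlaps between the male groups and not between the female groups.

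Every T cell receptor needs the CD3 and zeta chains to reach the surface and to signal, and Cd3e and Cd3g changed more than any V segment in both sexes. Cd3e rose by 2.08 ± 0.26 in males (adjusted p = 1.29e-05) and 1.72 ± 0.33 in females (adjusted p = 0.00760), and Cd3g by 1.47 ± 0.19 and 1.42 ± 0.24. Cd3d rose by 1.16 and 0.82, and Cd247, the zeta chain, by 0.40 in males, with 0.33 (adjusted p = 0.0801) in females. Cd3e read 6.11 to 6.73 in male sham and 7.93 to 9.28 in male PPE arrays, without overlap. Cd4, of helper T cells, rose by 1.49 ± 0.30 and 1.88 ± 0.39, and Cd8a, of cytotoxic T cells, by 1.30 ± 0.19 and 1.52 ± 0.25. Cd8b1 rose by 0.97 and 1.12.

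Of the receptor constant genes Trgc3, a gamma constant gene, had a probe set of its own. It rose by 1.30 ± 0.33 in males (adjusted p = 0.00878) and had 0.77 ± 0.43 (adjusted p = 0.463) in females. Of 11 signalling genes behind the receptor 9 rose in males and 4 in females, with Cd2 at 1.56 and 1.36 and Cd28 at 0.90 and 0.64. Of 19 T cell receptor J segments 8 were called higher in males and 3 in females, with medians of 0.36 and 0.40. Genes of receptor rearrangement (Rag2, Dntt and Ptcra) were above background in no array. Of these Dntt, which adds bases at the joins, passed in males, at 0.37 (adjusted p = 0.0432). Of 7 measured genes of gamma delta and innate-like T cells 3 were above background in any array, so for the others a missing call says little. None of the 7 rose, and Sox13 (-0.38) and Zbtb16 (-1.32) fell in males. These 2 were above background in every array, and which cells gave their signal was not tested.

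Of 4 natural killer cell genes 4 rose in males and 2 in females, of 5 myeloid genes 5 and 1, and of 5 smooth muscle genes 5 and 4 fell. Of 3 adipocyte genes 0 were called in either sex.

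The male and female differences were set side by side, since they share no array. Of the 117, 85 were above 0 in both sexes and 8 below 0 in both, against 26.9% of all genes above 0 in both. Across the 117 members Pearson's r of the 2 differences was 0.62 and Spearman's rho 0.51, against 0.50 and 0.32 across all genes. Members share probes and arrays, so these are descriptions. Trbv3, Trbv13-2 and Trbv20 were called in both sexes and 25 members in either.

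The difference between the sexes was tested itself. In limma's interaction contrast 0 of 117 V segments passed, 7 had an unadjusted p below 0.05, and 0.542% of all genes passed, with 9.93% at an unadjusted p below 0.05. The lowest p was that of Trbv15, at 0.75 ± 0.18 more in males (95% interval 0.37 to 1.12, adjusted p = 0.0655). Its female difference was -0.01 ± 0.14, from sham arrays at 6.56, 6.71 and 6.85 and PPE arrays at 6.49, 6.84, 6.88 and 6.58, which overlap fully. Under quantile normalisation the adjusted p of Trbv15 was 0.0351 and under array weights 0.0129, and in each of the 5 alternatives that called any V segment Trbv15 was among those called. Next was Trgv7, at 0.47 ± 0.15 (adjusted p = 0.227). For Trbv3 the difference was -0.12 with an interval of -0.86 to 0.62, and for Trbv13-2 it was -0.30 with an interval of -0.88 to 0.29.

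**Figure D5:**
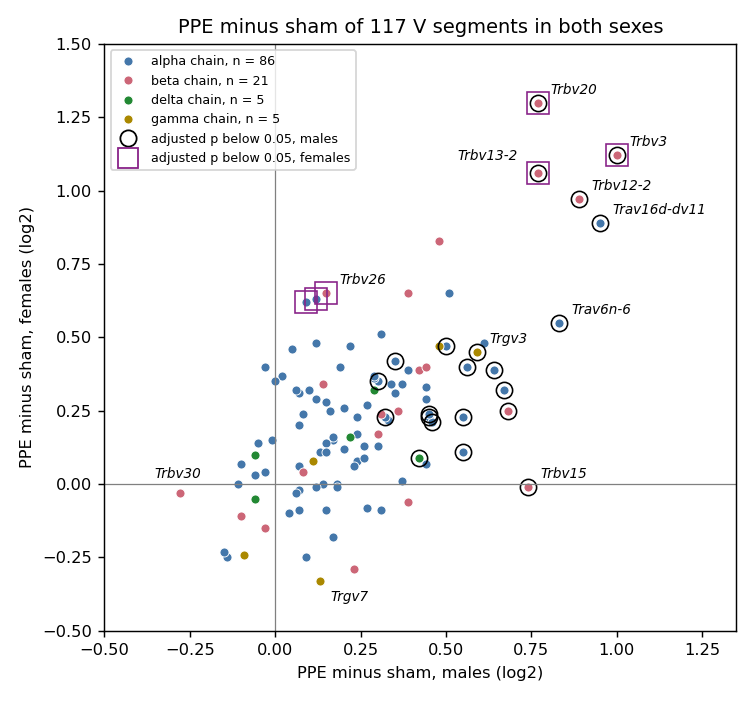
PPE minus sham (log2) of the 117 V segments in males (horizontal) and females (vertical), coloured by chain. Circles mark an adjusted p below 0.05 in males and squares in females. Trbv3, Trbv13-2 and Trbv20 carry both marks, and Trbv15 lies at 0.74 in males and -0.01 in females.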

How the data were processed

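The authors deposited log2 intensities, with the Transcriptome Analysis Console and mm10 named in the submitters' processing notes. Which release and summarisation were used, and how background was corrected, is not given in the sources used here. Of 65956 probe sets, 30604 carried 1 symbol. Symbols were updated through Entrez IDs and RefSeq for 1135, and the brightest probe set was kept for each of 30063 genes. All 19 arrays entered 1 linear model of the 4 groups (lmFit, then eBayes, in limma 3.58.1 under R 4.3.3) with no further normalisation or filter. Differences are PPE minus sham within a sex, and called means a Benjamini-Hochberg adjusted p below 0.05 over all genes. The procedure was tested on simulated data. No array was a copy of another, since no pair shared more than 2.5% of its values. The number of arrays limits the precision. Samples were grouped by sex and operation, per the labels, which state 1 aorta for each array. Replicate numbers are shared between groups but mark no pairing that the labels state.

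The members, gene lists and rules were chosen with earlier results of these data known. Named members are every delta and gamma segment, the 5 brightest alpha and beta segments, the called alpha and beta segments with the largest differences (at most 6 for each chain and sex, or the 3 with the lowest p), the 2 with the lowest p between the sexes, and segments of invariant T cells. A few others, such as Trbv30, Trbv31 and Trav3n-3, were named after their values were seen. Alternatives were other normalisations and centrings, a filter on dim genes, other probe set and symbol rules, other limma settings, a block on replicate numbers, other background levels and each array left out. Leaving out the 3 male or the 2 female libraries named in the text, and 1 background level for each sex, were chosen after seeing the data.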

Additional observations from a re-analysis of the deposited data

Results flagged for a closer look

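In 11 of the 111 groups of 4 to 10 arrays looked at for the named members, 1 array lay far from the rest by Dixon's criterion, which chance gives in about 1 in 20 groups. The library female PPE 3 was the high one in 4 of them: Trav13n-4 at 11.69 (others 11.20 to 11.27), Trav4n-4 at 9.74 (9.28 to 9.35), Trbv3 at 9.35 (8.18 to 8.25) and Trbv20 at 7.81 (6.84 to 6.98). The library male sham 4 was high for Trbv1, at 6.06 (5.60 to 5.73), and Trbv14, at 5.92 (5.27 to 5.41). Male sham 2 was high for Trdv1, at 4.02 (3.81 to 3.85), and male sham 3 low for Trbv26, at 3.40 (3.81 to 3.88). Among male PPE arrays, number 5 was high for Trdv2-2, at 4.91 (4.33 to 4.51), number 4 low for Trgv3, at 5.67 (6.46 to 7.05), and number 7 low for Trav16n, at 5.13 (5.73 to 6.03).

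The 25 probe sets that named a V segment together with other symbols were outside the 117. In males 9 were higher after PPE and in females 0, with median differences of 0.23 and 0.40. The largest male differences were those of 3 gamma probe sets that also carry constant and J segments: 1.20 for Tcrg-C1, Tcrg-V4 and Trgj1, 1.20 for Gm16602, Tcrg-C4, Tcrg-V1 and Trgj4, and 1.18 for Tcrg-C2, Trgj2 and Trgv2. Tcrg-V4 is the older name of Trgv4, whose own probe set had 0.48. The others were Trav9-4 with Trav9d-4 at 1.03, TCRB with Trbv17 at 0.63, Trav16 with Trav16n at 0.58, Trbv4 with Trbv5 at 0.42, Trav6-6 with Trav6d-6 at 0.34, and A430107P09Rik with Trav3-3 at 0.33.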

How the results depend on the processing

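The number of arrays and the dim signal of most members limit these results. The main counts called were 22 in males (14 alpha, 6 beta), 6 in females (2 alpha, 4 beta) and 0 for the difference between the sexes. Centring on the sensory receptor genes moved the male median of all genes to 0.13, and the other scalings moved it to at most 0.06. For the named members, 2140 values in alternatives kept direction and side of the threshold, 67 passed newly, 96 no longer passed and 23 changed sign.

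In males the counts were 39 (26 alpha, 11 beta) under quantile normalisation, 41 (25, 12) under centring on the array median, 54 (36, 12) under centring on the sensory receptor genes, 38 (23, 11) with array weights and 12 (6 alpha) with the replicate number as a block. Of all genes 12.5, 11.3, 12.3, 10.9 and 5.98% were then called higher, in the same order, against 9.69% in the main fit. In females they were 3 (0 alpha) under centring on the array median, 19 (12 alpha, 1 of the 19 lower) with array weights, 3 (0 alpha) with dim genes left out and 3 (1 alpha, 2 beta) with the replicate block. The shares of all genes called higher were 2.02, 7.46, 5.87 and 1.68%, in the same order, against 2.79% in the main fit. With dim genes left out fewer than 117 members remained, and the share is that of the genes kept. The female alpha count was 4 under quantile normalisation and 1 under sensory centring, with every probe set as its own feature, or with female arrays alone. Here 2.24, 1.49, 2.73 and 4.44% of all genes were called higher, in the same order. The difference between the sexes gave 1 call under quantile normalisation, median centring and the dim filter, 2 under sensory centring and 3 with array weights. All were higher in males, as were 0.226, 0.0832, 0.141, 0.163 and 1.04% of all genes called there, in the same order. Without male sham 4, male sham 5 and male PPE 1, 10 beta members were called in males and 10 V segments in females (1 lower). Of all genes 9.16% were then called higher in males and 4.87% in females. Without female PPE 2 and female PPE 3 the female counts were 0 in all, 0 for alpha and 0 for beta. The male delta median was 0.34 under sensory centring and -0.06 with dim genes left out, where the gamma medians were 0.48 in males and 0.45 in females. That filter kept genes above background in at least 3 arrays. Of the delta members it kept Trdv4 alone, and of the gamma members Trgv3, Trgv4 and Trgv6. Trgv4 passed it through 3 male PPE arrays only. The filtered delta and gamma medians are thus those of fewer members, kept in part for high PPE values. The cause of the other shifts was not tested.

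The PPE minus sham share above background, 21.2 (alpha) and 26.0 (beta) percentage points in males and 10.6 and 11.5 in females, was 6.08 and 2.04 in males and -1.45 and 1.19 in females at the 99th percentile of the sensory receptor genes. It was 14.4 for male alpha and 21.4 for female beta above the median of all probe sets, and 9.17 and 10.2 in males with 1 level for each sex.

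Leaving out each array in turn gave 16 to 27 calls in males (9 to 20 alpha, 5 to 9 beta), 0 to 8 in females (0 to 3 alpha, 0 to 6 beta) and 0 to 0 for the difference. The share of all genes called higher ran from 8.11 to 10.6% in males and from 0.905 to 3.24% in females. The medians were 0.16 to 0.24 (alpha), 0.31 to 0.46 (beta), 0.17 to 0.26 (delta) and 0.07 to 0.22 (gamma) in males, and 0.07 to 0.28, 0.15 to 0.36, 0.02 to 0.16 and -0.07 to 0.23 in females. The lowest female counts and medians came without female sham 1, except the beta median, which was lowest without female PPE 3. The male total was lowest without male sham 1, and the male alpha count without male PPE 6. Sign changes were seen in members near 0. In males, Trdv4 ran from -0.17 to 0.06, Trdv5 from -0.17 to 0.10, Trgv6 from -0.18 to 0.00 and Trav11n from -0.07 to 0.20. In females, Trdv5 ran from -0.14 to 0.06, Trgv5 from -0.07 to 0.23, Trav4n-4 from -0.03 to 0.46, Trav11d from -0.32 to 0.05, Trbv1 from -0.02 to 0.27, Trbv14 from -0.21 to 0.14 and Trbv15 from -0.08 to 0.06. Trdv4 in males was 0.04 under quantile normalisation and 0.07 under sensory centring, Trdv5 0.07 and Trgv6 0.03 under sensory centring, and with the replicate block Trdv5 in females was 0.06 and Trbv15 0.03.

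Same-numbered arrays of a sex correlated at -0.32 to 0.19 in males (5 pairs, 0 of them the best match). In females they correlated at -0.22 to 0.24 (3 pairs, 1 the best match). So few pairs cannot decide whether the numbers mark a shared batch.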
